A study of Mus musculus with 24 samples.

Results

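Rab genes encode the Rab GTPases, the largest family of small GTPases that direct traffic between the membranes of a cell. Members were taken by symbol, as every listed gene named Rab with a number and at most 1 letter and 1 more digit after it, and 48 of the 13290 genes listed in all of the count tables met that rule. Genes such as Rab11fip1 or Rab3gap2, which act on Rab proteins, were kept apart. Rab27b and Rab38 are not among the listed genes and were not analysed here.

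A Rab protein is carried in the cytosol in its GDP-bound form by a GDP dissociation inhibitor (GDI), is switched on at a membrane by a guanine nucleotide exchange factor (GEF), recruits effectors that move, tether or fuse vesicles, and is switched off by a GTPase-activating protein (GAP). Each Rab marks its own compartments, so that Rab1 and Rab2 serve the endoplasmic reticulum (ER) and Golgi, Rab5 the early endosome, Rab11 recycling endosomes and Rab7 late endosomes and lysosomes. In microglia, the macrophages of the brain, these proteins steer the maturation of phagosomes, the recycling or degradation of receptors and the secretion of cytokines, and Rab27a, Rab35, Rab11 and Rab31 have been tied to the release of extracellular vesicles (EVs) in other cell types.

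RNA was sequenced from BV2 cells, an immortalised mouse microglial line, and from the EVs those cells released. Groups were LPS cells, IL10 cells, TGFB cells and Control cells, and LPS EVs, IL10 EVs, TGFB EVs and Control EVs, with 3 libraries each. LPS, a bacterial wall component sensed by Toll-like receptor 4, was given at 100 ng/mL, and the cytokines IL-10 and TGF-β were each given at 50 ng/mL, all for 72 h. All groups come from 1 cell line, and the 3 treatments share their control libraries. The labels do not say whether the 3 libraries of a group were grown apart, so a p-value here reflects how far these libraries differ, which may be technical. Libraries are called the first, the second and the third within a group by the number in the column name, which only names them.

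EV libraries held 3.02 M to 17.98 M counts and cell libraries 26.14 M to 42.13 M, so a floor of 3 counts lay at 0.167 to 0.994 CPM (counts per M counts of the library, M standing for mega) in EVs and at 0.071 to 0.115 CPM in cells. All 12 microglia and macrophage markers were counted in every group. The LPS EV libraries stood apart from the other EV libraries. The 116 listed genes with no count in any cell library summed to 1157, 4986.2 and 2383.4 CPM in LPS EVs, against 9.8 to 131.2 CPM in the other EV libraries. The lowest total of a listed gene was 240 counts, so a gene without counts in cells is listed through its EV counts alone. The 16 listed markers of other cell types, of 60 searched, all had counts in LPS EVs (summed to 157.2, 775.3 and 295.3 CPM), against 9 with counts in IL10 EVs (40.4 to 63.9 CPM), 7 in TGFB EVs (48.9 to 77.4 CPM), 9 in Control EVs (37.4 to 142.5 CPM) and 10 to 12 in the cell groups (24.2 to 44.7 CPM). Of the Rab genes, 0 or 1 had no count in a LPS EV library, against 9 to 27 in the other EV libraries and 0 to 5 in the cell libraries. Of all listed genes, 0.49% to 4.42% had no count in a LPS EV library. The range was 19.58% to 50.0% in the other EV libraries and 4.91% to 7.25% in the cell libraries. The TGFB EV library with 27 members at 0 also had no count for 50% of all listed genes.

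The promoters of Rab20, Rab14, Rab31 and Rab11a are shown as examples. Each of these genes was called in at least 2 of the 3 comparisons of treated with Control cells and recurs in the results below. Other members that met this, such as Rab32 and Rab9, are not shown. Each window runs from 250 bases before to 50 bases after the annotated start, in RefSeq's GRCm38.p6 table, which held 53 promoters for 41 of the 48 members, Rab7b and Rab44 not among them. Capitals mark matches on either strand to patterns known from NF-kB (GGNNTTTCC), from interferon regulatory factors (GAAANNGAA), from STAT factors (TTCNNNGAA), from the lysosomal regulators TFEB and MITF (CACGTG), from AP-1 (TGANTCA) and from SMAD factors (CAGACA), where N is any base and matches to different patterns may overlap.
Rab20 promoter, chr8:11478591-11478890, minus strand: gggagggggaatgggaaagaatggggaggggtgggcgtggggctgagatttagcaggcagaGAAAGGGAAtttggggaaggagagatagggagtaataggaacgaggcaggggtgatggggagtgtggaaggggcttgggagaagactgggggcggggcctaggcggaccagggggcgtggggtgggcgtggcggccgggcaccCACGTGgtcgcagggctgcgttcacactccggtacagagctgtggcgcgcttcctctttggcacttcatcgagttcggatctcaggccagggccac
Rab14 promoter, chr2:35201071-35201370, minus strand: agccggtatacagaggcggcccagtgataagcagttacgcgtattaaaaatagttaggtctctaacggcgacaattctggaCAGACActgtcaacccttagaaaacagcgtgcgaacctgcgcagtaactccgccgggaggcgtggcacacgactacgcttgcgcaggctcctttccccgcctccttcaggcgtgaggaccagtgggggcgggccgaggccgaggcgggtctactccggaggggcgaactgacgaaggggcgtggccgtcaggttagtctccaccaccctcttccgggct
Rab31 promoter, chr17:65772703-65773002, minus strand: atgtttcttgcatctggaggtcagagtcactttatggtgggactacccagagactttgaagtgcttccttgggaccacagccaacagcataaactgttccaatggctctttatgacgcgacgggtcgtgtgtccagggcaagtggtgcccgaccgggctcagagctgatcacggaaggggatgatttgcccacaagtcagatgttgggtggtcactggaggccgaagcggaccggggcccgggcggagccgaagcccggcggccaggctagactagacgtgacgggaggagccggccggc
Rab11a promoter, chr9:64737707-64738006, minus strand: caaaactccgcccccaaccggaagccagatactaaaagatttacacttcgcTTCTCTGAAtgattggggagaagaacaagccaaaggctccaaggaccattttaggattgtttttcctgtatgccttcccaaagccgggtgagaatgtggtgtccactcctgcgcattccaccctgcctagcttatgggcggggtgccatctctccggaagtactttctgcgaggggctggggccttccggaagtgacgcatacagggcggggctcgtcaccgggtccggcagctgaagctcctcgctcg

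The Rab20 window held 1 GAAANNGAA and 1 CACGTG, the Rab14 window 1 CAGACA, the Rab11a window 1 TTCNNNGAA and the Rab31 window none of the 6. GAAANNGAA was in 3.8% of the 53 member promoters and in 8.6% of all 32851 promoters of that table. CACGTG was in 11.3% of member promoters and in 7.2% of all, CAGACA in 18.9% and 21.0%, and TTCNNNGAA in 7.5% and 8.3%. GGNNTTTCC was in 7.5% of member promoters and in 5.8% of all, and TGANTCA in 3.8% and 7.8%. A match is a description of these letters and not a measured binding site.

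In Control cells the Rab genes were led by members of the ER, late endosome and Golgi-to-endosome routes. On the scale of CPM per kilobase of exon, which allows genes to be compared, Rab1b (ER to Golgi) was at 181 ± 3.5, Rab7 (late endosome and lysosome) at 106 ± 2.16, Rab31 (Golgi to endosome) at 76.8 ± 3.25, Rab10 (secretory and recycling routes) at 61.9 ± 3.28 and Rab32 (lysosome-related organelles and phagosomes) at 55.4 ± 2.18 (SD, n = 3 each). These 5 levels did not overlap between neighbours in the order. Rab2a (47.9 ± 1.22), Rab7b (43.2 ± 3.69), Rab8a (41.2 ± 0.191) and Rab1a (40.8 ± 1.15) came next, and their libraries overlapped. The first 10 members made up 72.5% of the summed CPM per kilobase of all 48, and 13 members lay under 1 CPM per kilobase, among them Rab27a at 0.0526, Rab30 at 0.0335, Rab34 at 0.00471 and Rab3b at 0. In Control EVs Rab1b was again first, at 125 ± 50.0, before Rab7 at 67.1 ± 39.4 and Rab10 at 52.3 ± 26.1, but every neighbouring pair overlapped.

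**Figure D1:**
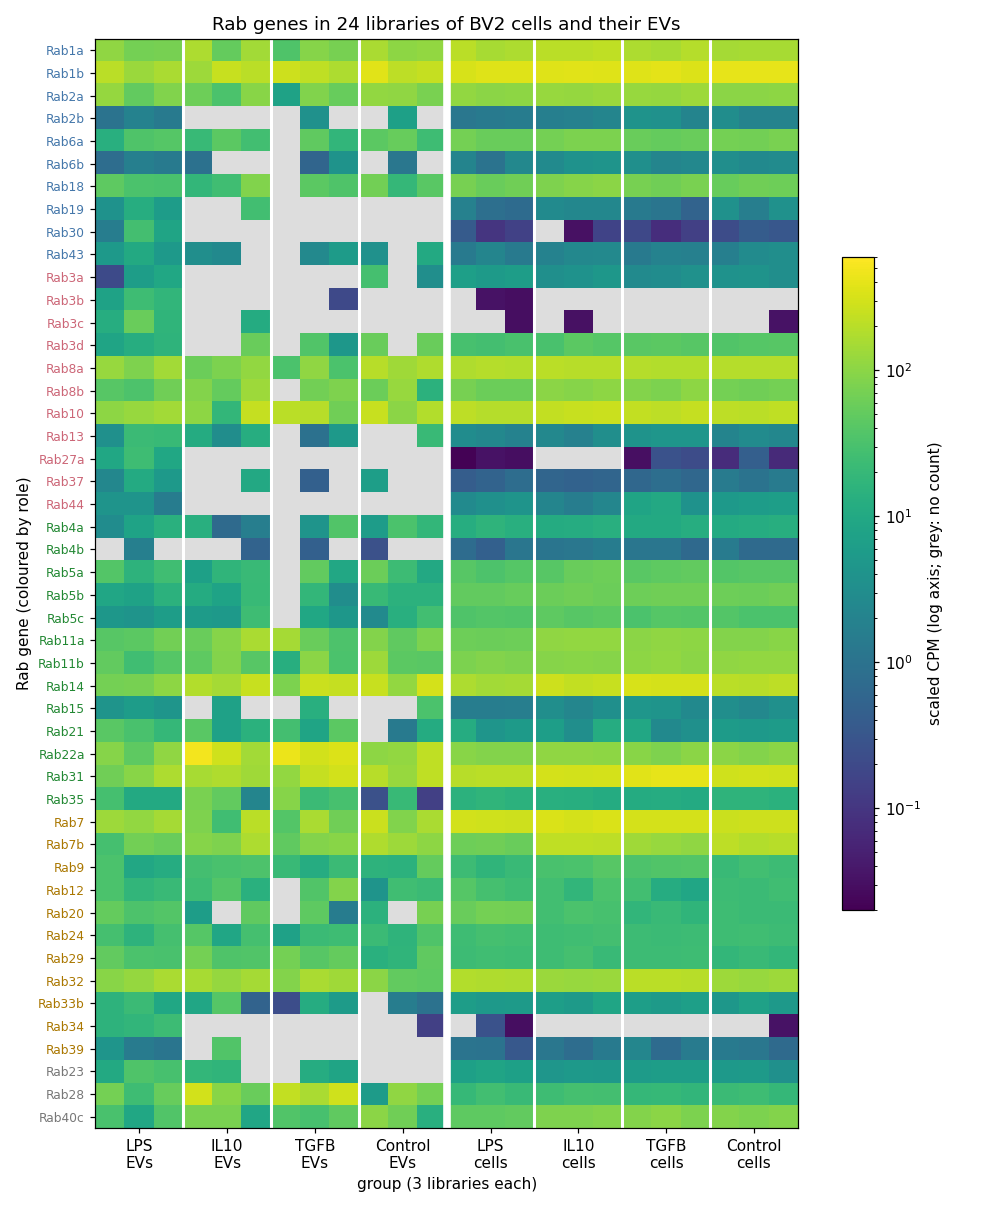
Scaled CPM (colour, log axis) of all 48 Rab genes (rows, labels coloured by role) in the 24 libraries (columns, 3 per group, EVs left of cells), with grey for no count. The cell libraries of a group look alike, whereas members low in cells, such as Rab3b, Rab27a and Rab34, are counted in LPS EVs and mostly grey in the other EV groups.

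Summed over all members, Rab genes made up 2976 ± 140 CPM in LPS cells, 3154 ± 47 CPM in IL10 cells, 3442 ± 107 CPM in TGFB cells and 3166 ± 26 CPM in Control cells (SD, n = 3 each, CPM of library totals). The recycling and early endosome members made up 809 ± 34 CPM in LPS cells, 969 ± 24 CPM in IL10 cells, 1201 ± 41 CPM in TGFB cells and 982 ± 9 CPM in Control cells. The family sum was thus lowest in LPS cells and highest in TGFB cells on this scale. After TMM scaling the mean of IL10 cells (3485 CPM) lay above that of TGFB cells (3433 CPM), but their libraries overlapped. No test was made of a sum. Beside tests, values are given as scaled CPM, which is CPM after TMM scaling of all 24 libraries. In bulk RNA, fewer cells that express a gene and less RNA per cell cannot be told apart.

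The first question was how each treatment moved the Rab genes of the cells. After LPS, Rab20 rose and Rab7b fell most among the clearly expressed members, and falls outnumbered rises. After IL-10 most calls were modest rises, led by Rab18, Rab8b and Rab9, while Rab44 fell. After TGF-β Rab32, Rab14, Rab31, Rab9 and Rab8b rose and Rab7b fell. With edgeR's quasi-likelihood test at an adjusted p under 0.05, 7 members rose and 14 fell of 44 tested in LPS cells, where 56.1% of all 11951 genes tested were called, 28.6% as higher and 27.5% as lower. In IL10 cells 12 rose and 3 fell of 43 tested, where 23.2% of all genes were called, 12.3% as higher and 10.9% as lower. In TGFB cells 8 rose and 4 fell of 43 tested, where 29.9% of all genes were called, 14.5% as higher and 15.4% as lower. The median log2 fold change of the members tested was -0.10, 0.10 and 0.07 in LPS, IL10 and TGFB cells, against 0.01, 0.00 and 0.01 for all genes tested. In all, 32 members were called against Control cells at least once, Rab14 was the 1 called under all 3 treatments, and Rab3b, Rab3c, Rab27a and Rab34 were too low in cells to be tested. Most calls were small, with 11 of 21, 13 of 15 and 6 of 12 under 1.5-fold in LPS, IL10 and TGFB cells. Without the first control library the TGFB count was 7, with 5 rises and 2 falls.

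**Figure D2:**
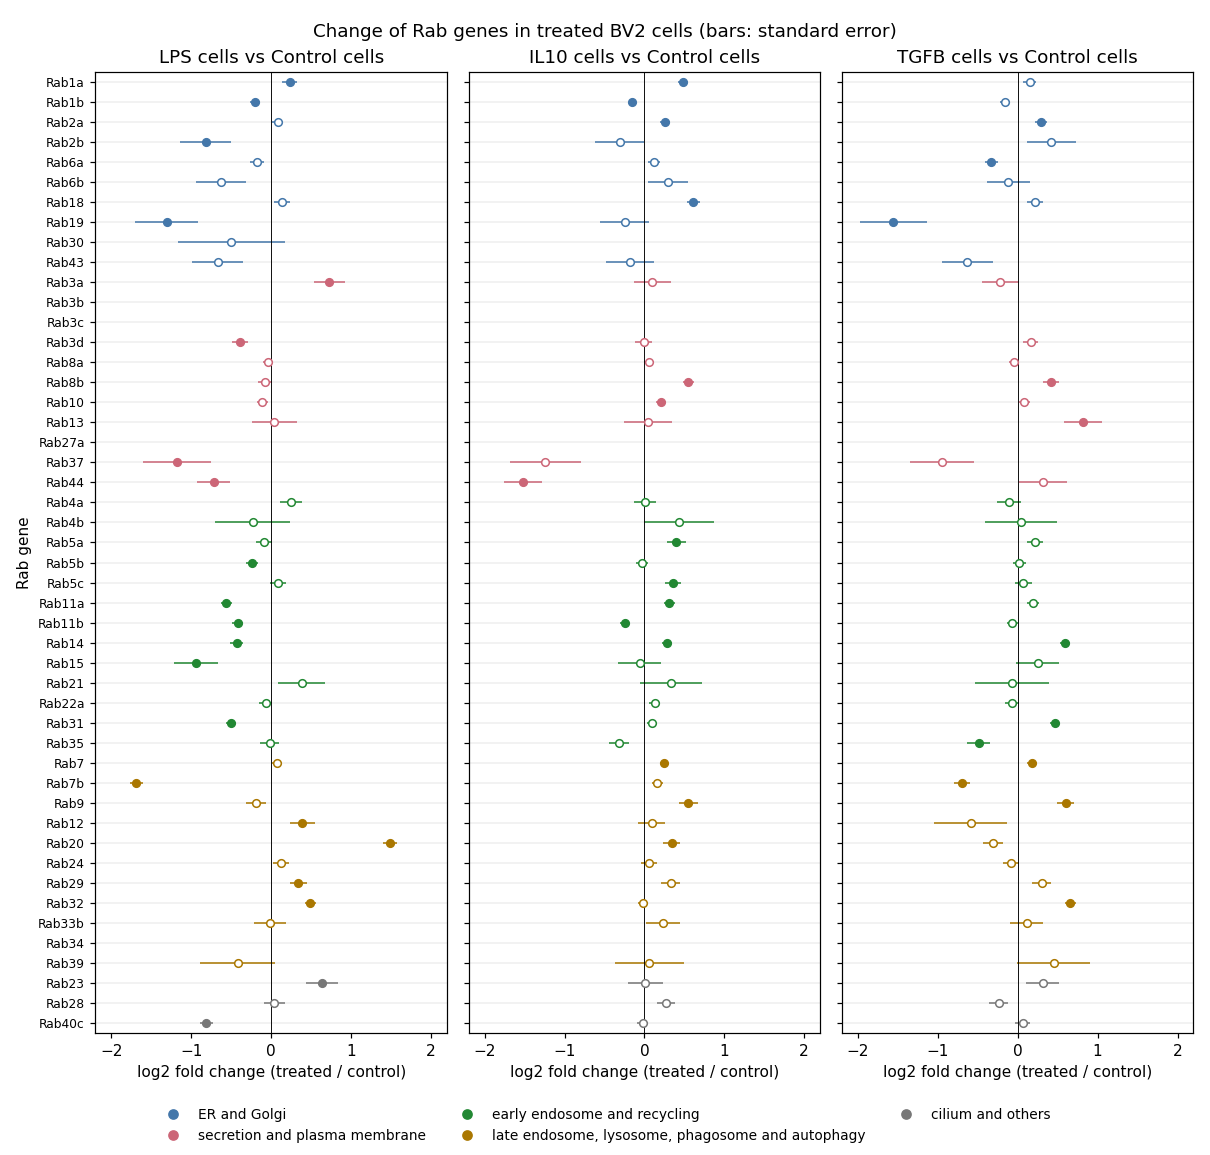
Log2 fold change (x axis, treated over control) of each Rab gene (y axis, by role) in LPS, IL10 and TGFB cells against Control cells, with standard errors from the edgeR fit and filled points for an adjusted p under 0.05. In LPS cells Rab7b (-1.69) and Rab20 (1.49) lie furthest out among members with narrow bars, and most filled points in IL10 cells lie right of 0.

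Among the late endosome, lysosome, phagosome and autophagy members, 10 were tested in each comparison. In LPS cells 4 rose and 1 fell, in IL10 cells 3 rose, and in TGFB cells 3 rose and 1 fell. These calls are 50.0%, 30.0% and 40.0% of the members tested, beside 56.1%, 23.2% and 29.9% of all genes. Rab20, a Rab of phagosomes in macrophages, had 57.5, 68.7 and 67.8 scaled CPM in LPS cells, 26.1, 32.8 and 29.6 in IL10 cells, 17.9, 21.6 and 16.8 in TGFB cells, and 24.3, 22.8 and 22.6 in Control cells. All LPS libraries lay far above every control library, and Rab20 rose 2.81-fold (log2 1.49 ± 0.09 SE, edgeR adjusted p = 1.16e-10). In IL10 cells it rose 1.27-fold (adjusted p = 0.0275), a call lost without the second IL10 library (adjusted p = 0.134) or without any 1 control library (0.0591 to 0.0957), and in TGFB cells it did not pass (adjusted p = 0.0698). The lncRNA gene E230013L22Rik shares 356 exon bases (25.6% of the Rab20 exons) on the other strand, and it had 0.432, 0.931 and 1.07 scaled CPM in LPS cells, against 0.0369, 0.0924 and 0.335 in Control cells (edgeR adjusted p = 0.00596). The library kit does not mark strand, so reads in the shared bases cannot be told apart. The part of E230013L22Rik in the Rab20 values was not tested.

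Rab7b, which in mouse macrophages sends Toll-like receptor 4 to lysosomes for degradation, lies on chromosome 1 (GRCm38, chr1:131688695-131715439, plus strand). It had 60.9, 63.5 and 58.0 scaled CPM in LPS cells, 226, 222 and 218 in IL10 cells, 138, 122 and 107 in TGFB cells, and 216, 180 and 198 in Control cells. LPS and TGFB libraries lay below every control library and did not overlap with each other. Rab7b fell 3.23-fold in LPS cells (log2 -1.69 ± 0.08 SE, edgeR adjusted p = 7.84e-13) and 1.62-fold in TGFB cells (log2 -0.70 ± 0.10 SE, adjusted p = 0.000171), and in IL10 cells it did not pass (adjusted p = 0.0888). Its close relative Rab7, the main Rab of late endosomes, had 292, 283 and 279 scaled CPM in LPS cells, 330, 313 and 331 in IL10 cells, 311, 315 and 310 in TGFB cells, and 268, 277 and 275 in Control cells. Rab7 rose 1.19-fold in IL10 cells (edgeR adjusted p = 0.0027) and 1.14-fold in TGFB cells (adjusted p = 0.0318), the TGFB call being lost without the first TGFB library or without any 1 control library (adjusted p 0.0725 to 0.138), and in LPS cells it did not pass (adjusted p = 0.345). Of the summed CPM per kilobase of Rab7 and Rab7b, Rab7b therefore made up 10.8% ± 0.4 in LPS cells, 27.8% ± 0.7 in IL10 cells, 18.1% ± 1.9 in TGFB cells and 29.0% ± 2.2 in Control cells (SD, n = 3 each).

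Rab32, a Rab of lysosome-related organelles and phagosomes, had 183, 179 and 172 scaled CPM in LPS cells, 129, 123 and 128 in IL10 cells, 204, 205 and 200 in TGFB cells, and 132, 122 and 131 in Control cells. It rose 1.40-fold in LPS cells (edgeR adjusted p = 4.11e-06) and 1.58-fold in TGFB cells (adjusted p = 6.13e-06), and IL10 libraries overlapped with control libraries (adjusted p = 0.878). Rab9, which returns mannose 6-phosphate receptors from late endosomes to the Golgi, had 23.0, 17.3 and 21.9 scaled CPM in LPS cells, 31.0, 32.5 and 41.3 in IL10 cells, 33.9, 36.5 and 38.5 in TGFB cells, and 21.7, 26.4 and 23.6 in Control cells. It rose 1.46-fold in IL10 cells (edgeR adjusted p = 0.00242) and 1.51-fold in TGFB cells (adjusted p = 0.00105), with no overlap in either, while LPS cells overlapped with Control cells (adjusted p = 0.207). Rab29, a partner of the kinase LRRK2, had 23.6, 25.1 and 24.6 scaled CPM in LPS cells, against 18.6, 21.6 and 18.2 in Control cells, and rose 1.26-fold (adjusted p = 0.0143). Rab12, which sends the transferrin receptor to lysosomes, rose 1.31-fold in LPS cells (adjusted p = 0.0483). The Rab29 call was lost without the first or the third control library (adjusted p = 0.062 and 0.0709), and the Rab12 call without the first LPS library (0.326) or any 1 control library (0.0811 to 0.152), with no filter and in the fit of all 12 cell libraries (up to 0.462). Rab39, which has been tied to phagosome acidification and inflammasome components, had 1.06, 0.997 and 0.348 scaled CPM in LPS cells, 1.20, 0.797 and 1.41 in IL10 cells, 2.24, 0.741 and 1.45 in TGFB cells, and 1.40, 1.17 and 0.704 in Control cells, and it did not pass in any of the 3 comparisons (lowest adjusted p = 0.465). Rab24 and Rab33b did not pass in any of the 3 either, and 62.4% of the Rab24 exon bases lie over Prelid1 on the other strand.

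**Figure D3:**
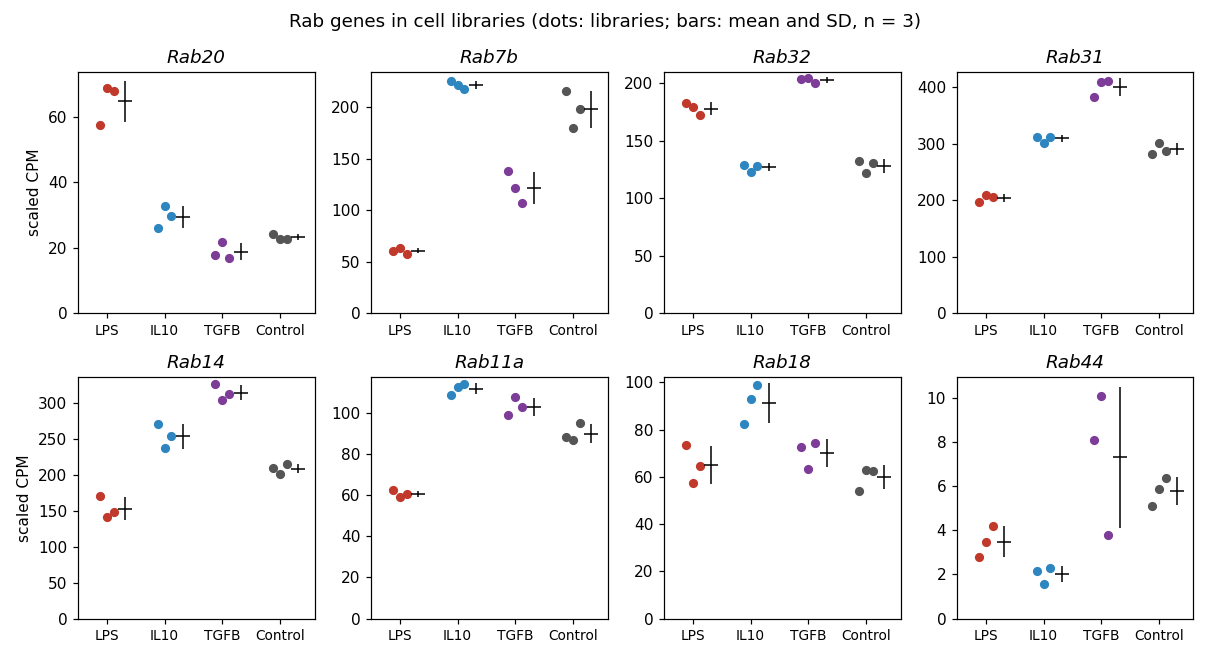
Scaled CPM (y axes, from 0) of 8 Rab genes in LPS, IL10, TGFB and Control cells (x axes), with a dot for each library and the mean and SD of 3 libraries beside them. Rab20 stands at 57.5 to 68.7 in LPS cells against 22.6 to 24.3 in Control cells, Rab7b at 58.0 to 63.5 against 180 to 216, and Rab14 and Rab31 are lowest in LPS cells and highest in TGFB cells.

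Among the early endosome and recycling members, 13 were tested in each comparison. In LPS cells 6 fell and none rose, in IL10 cells 4 rose and 1 fell, and in TGFB cells 2 rose and 1 fell. The shares called were 46.2%, 38.5% and 23.1%, beside 56.1%, 23.2% and 29.9% of all genes. Rab14, which acts between the Golgi, endosomes and phagosomes, had 171, 141 and 149 scaled CPM in LPS cells, 271, 237 and 255 in IL10 cells, 327, 305 and 313 in TGFB cells, and 210, 202 and 215 in Control cells. The 4 groups did not overlap, with LPS lowest and TGFB highest. Rab14 fell 1.35-fold in LPS cells (edgeR adjusted p = 7.58e-05), and rose 1.22-fold in IL10 cells (adjusted p = 0.00289) and 1.50-fold in TGFB cells (adjusted p = 1.33e-05). Rab31 had 196, 209 and 205 scaled CPM in LPS cells, 312, 301 and 312 in IL10 cells, 382, 409 and 410 in TGFB cells, and 281, 301 and 287 in Control cells. It fell 1.41-fold in LPS cells (edgeR adjusted p = 1.6e-06) and rose 1.38-fold in TGFB cells (adjusted p = 9.73e-05), whereas in IL10 cells it did not pass (adjusted p = 0.278).

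Rab11a, the general Rab of recycling endosomes, had 62.4, 59.3 and 60.5 scaled CPM in LPS cells, 109, 113 and 114 in IL10 cells, 99.3, 108 and 103 in TGFB cells, and 88.2, 87.0 and 95.2 in Control cells. It fell 1.47-fold in LPS cells (edgeR adjusted p = 2.95e-06) and rose 1.24-fold in IL10 cells (adjusted p = 0.00223), and in TGFB cells it did not pass (adjusted p = 0.0654). Its relative Rab11b fell 1.33-fold in LPS cells (edgeR adjusted p = 6.07e-05) and 1.19-fold in IL10 cells (adjusted p = 0.00791). Rab11a therefore made up 60.2% ± 2.2 of the CPM per kilobase of both in LPS cells, 71.1% ± 0.5 in IL10 cells, 66.6% ± 0.8 in TGFB cells and 62.5% ± 0.8 in Control cells (SD, n = 3 each). A pseudogene, Rab11b-ps2, is also listed, so reads may be split between it and Rab11b. Rab15, a Rab of recycling endosomes, had 1.60, 1.56 and 1.65 scaled CPM in LPS cells, against 3.32, 2.46 and 3.58 in Control cells, and fell 1.92-fold (edgeR adjusted p = 0.00726).

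Of the 3 Rab5 genes, which fuse and sort early endosomes, Rab5a had 40.7, 33.1 and 39.5 scaled CPM in LPS cells, 41.9, 56.2 and 62.9 in IL10 cells, 42.5, 47.2 and 51.4 in TGFB cells, and 38.7, 41.6 and 41.5 in Control cells. Rab5b had 50.7, 51.4 and 54.2 scaled CPM in LPS cells, 59.0, 63.4 and 60.4 in IL10 cells, 61.1, 64.6 and 64.5 in TGFB cells, and 62.1, 60.2 and 63.9 in Control cells. Rab5c had 34.5, 38.6 and 36.4 scaled CPM in LPS cells, 47.3, 40.9 and 44.8 in IL10 cells, 32.8, 39.1 and 37.4 in TGFB cells, and 38.6, 32.8 and 32 in Control cells. The changes were small. Rab5b fell 1.18-fold in LPS cells (edgeR adjusted p = 0.013), a call lost without the third control library (adjusted p = 0.0519). Rab5a rose 1.32-fold (adjusted p = 0.0224) and Rab5c 1.28-fold (adjusted p = 0.0127) in IL10 cells. The Rab5a call was lost without the second or the third IL10 library or any 1 control library (adjusted p 0.0654 to 0.103), and the Rab5c call without the second or the third control library (0.0628 and 0.0754). Rab35, a Rab of fast recycling that has been tied to EV release in other cells, had 14.8, 16.9 and 14.9 scaled CPM in LPS cells, 13.4, 13.0 and 11.5 in IL10 cells, 11.2, 12.0 and 10.7 in TGFB cells, and 16.6, 16.5 and 14.3 in Control cells. It fell 1.40-fold in TGFB cells (edgeR adjusted p = 0.0148), a call lost without the first or second control library (adjusted p = 0.0692 and 0.0605). Rab4a, Rab4b, Rab21 and Rab22a did not pass in any of the 3 comparisons, and 65% of the Rab4b exon bases are shared with the read-through gene Gm21983.

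Among the secretion and plasma membrane members, 8 were tested in each comparison. In LPS cells 1 rose and 3 fell, in IL10 cells 2 rose and 1 fell, and in TGFB cells 2 rose. The shares called were 50.0%, 37.5% and 25.0%, beside 56.1%, 23.2% and 29.9% of all genes. Rab44, a large Rab with a role in granule release in mouse mast cells, had 2.79, 3.49 and 4.21 scaled CPM in LPS cells, 2.16, 1.59 and 2.31 in IL10 cells, 8.09, 10.1 and 3.80 in TGFB cells, and 5.09, 5.88 and 6.37 in Control cells. It fell 2.86-fold in IL10 cells (edgeR adjusted p = 0.000123) and 1.65-fold in LPS cells (adjusted p = 0.00723), and TGFB libraries lay on both sides of the control libraries (adjusted p = 0.459). Rab3a, a Rab of regulated exocytosis, had 6.61, 5.42 and 6.30 scaled CPM in LPS cells, against 3.87, 3.97 and 3.28 in Control cells, and rose 1.66-fold (edgeR adjusted p = 0.00384). Its relative Rab3d had 29.6, 27.5 and 31.5 scaled CPM in LPS cells, 31.7, 45.4 and 39.3 in IL10 cells, 43.6, 45.4 and 41.9 in TGFB cells, and 36.6, 39.3 and 41.1 in Control cells. Rab3d fell 1.31-fold in LPS cells (edgeR adjusted p = 0.00215), so that Rab3a made up 28.0% ± 1.4 of the CPM per kilobase of the Rab3 genes in LPS cells, 16.4% ± 2.6 in IL10 cells, 12.1% ± 1.8 in TGFB cells and 15.2% ± 1.9 in Control cells (SD, n = 3 each). Rab3b and Rab3c had at most 0.0335 scaled CPM in any cell library.

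Rab8b, which carries vesicles to the plasma membrane, had 71.6, 58.9 and 58.9 scaled CPM in LPS cells, 101, 92.6 and 103 in IL10 cells, 88.6, 78.9 and 105 in TGFB cells, and 69.4, 64.9 and 68.3 in Control cells. It rose 1.46-fold in IL10 cells (edgeR adjusted p = 1.52e-05) and 1.34-fold in TGFB cells (adjusted p = 0.00605), without overlap in either. Its relative Rab8a had 179, 187 and 186 scaled CPM in LPS cells, 203, 197 and 197 in IL10 cells, 188, 182 and 184 in TGFB cells, and 192, 189 and 191 in Control cells, and did not pass in any of the 3 comparisons (lowest adjusted p = 0.499). Rab10 had 212, 188 and 193 scaled CPM in LPS cells, 236, 251 and 261 in IL10 cells, 230, 217 and 239 in TGFB cells, and 215, 203 and 228 in Control cells. It rose 1.16-fold in IL10 cells (edgeR adjusted p = 0.0206), a call lost without the second or the third IL10 library or the first or second control library (adjusted p 0.0561 to 0.101). Rab13, best known from epithelial tight junctions, had 2.96, 2.46 and 1.97 scaled CPM in LPS cells, 2.46, 1.85 and 3.21 in IL10 cells, 3.94, 4.45 and 4.59 in TGFB cells, and 2.07, 2.86 and 2.35 in Control cells. It rose 1.77-fold in TGFB cells (edgeR adjusted p = 0.0192), a call lost without the first or the third control library (adjusted p = 0.0796 and 0.0622). Rab37, a Rab of secretory granules, fell 2.27-fold in LPS cells (adjusted p = 0.0268) at under 2 scaled CPM, a call lost without the first or second LPS library or the first or the third control library (adjusted p 0.0664 to 0.106). Rab27a, which docks multivesicular bodies at the plasma membrane for EV release, had 0.0216, 0.0332 and 0.0290 scaled CPM in LPS cells, 0 in all IL10 cells, 0.0307, 0.273 and 0.224 in TGFB cells, and 0.0738, 0.462 and 0.0670 in Control cells, and was not tested in cells.

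Among the ER and Golgi members, 1 rose and 3 fell of 10 tested in LPS cells. In IL10 cells 3 rose and 1 fell of 9, and in TGFB cells 1 rose and 2 fell of 9. The shares called were 40.0%, 44.4% and 33.3%, beside 56.1%, 23.2% and 29.9% of all genes. Rab18, a Rab of the ER and of lipid droplets, rose most in IL10 cells, 1.52-fold (edgeR adjusted p = 2.96e-05). It had 73.3, 57.3 and 64.6 scaled CPM in LPS cells, 82.4, 93.0 and 99.1 in IL10 cells, 72.8, 63.4 and 74.2 in TGFB cells, and 54.1, 63.1 and 62.3 in Control cells, so that IL10 libraries alone lay above all others. Rab1a had 206, 158 and 171 scaled CPM in LPS cells, 210, 208 and 225 in IL10 cells, 166, 157 and 189 in TGFB cells, and 150, 157 and 153 in Control cells. It rose 1.39-fold in IL10 cells (edgeR adjusted p = 9.37e-06) and 1.17-fold in LPS cells (adjusted p = 0.0283), the LPS call being lost without the first LPS library (adjusted p = 0.137) or the first or the third control library (0.0931 and 0.0826). Rab1b had 323, 367 and 365 scaled CPM in LPS cells, 367, 371 and 365 in IL10 cells, 357, 387 and 355 in TGFB cells, and 402, 413 and 406 in Control cells. It fell 1.15-fold in LPS cells (edgeR adjusted p = 0.0121) and 1.11-fold in IL10 cells (adjusted p = 0.0466), the IL10 call being lost without any 1 library, with no filter and in the fit of all 12 cell libraries (up to 0.127). Rab1a made up 23.3% ± 3.8 of the CPM per kilobase of both in LPS cells, 25.8% ± 1.0 in IL10 cells, 21.8% ± 2.3 in TGFB cells and 18.4% ± 0.1 in Control cells (SD, n = 3 each).

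Rab2a, of the step between ER and Golgi, had 114, 98.2 and 104 scaled CPM in LPS cells, 122, 118 and 126 in IL10 cells, 120, 118 and 135 in TGFB cells, and 99.0, 99.9 and 104 in Control cells. It rose 1.20-fold in IL10 cells (edgeR adjusted p = 0.0058) and 1.22-fold in TGFB cells (adjusted p = 0.0106), the TGFB call being lost without the first control library (0.0542). Rab2b had 1.19, 1.33 and 1.54 scaled CPM in LPS cells, against 3.14, 2.03 and 2.04 in Control cells, and fell 1.76-fold (edgeR adjusted p = 0.0347), a call lost without the first or second LPS library or the first control library (adjusted p 0.0683 to 0.185). The unnamed transcript Gm43766, which covers 59.3% of the Rab2b exon bases on the other strand, had at most 0.123 scaled CPM in these libraries. Rab6a, of traffic within the Golgi and back to the ER, had 69.7, 56.9 and 56.5 scaled CPM in LPS cells, 70.4, 78.5 and 79.9 in IL10 cells, 57.8, 53.5 and 55.9 in TGFB cells, and 69.3, 66.1 and 74.3 in Control cells. It fell 1.26-fold in TGFB cells (edgeR adjusted p = 0.00894), a call lost without the third control library (adjusted p = 0.0588). Rab19 had 1.88, 0.864 and 0.725 scaled CPM in LPS cells, 1.41, 1.09 and 0.531 in TGFB cells, and 3.69, 1.63 and 3.62 in Control cells. It fell 2.96-fold in TGFB cells (edgeR adjusted p = 0.0135) and 2.48-fold in LPS cells (adjusted p = 0.00911), at low counts. The TGFB call was lost without the first or the third control library (adjusted p = 0.0645 and 0.0674), and without the first LPS library the LPS value was -1.90 on the log2 scale, against -1.31 with it. Of the 3 other members, Rab40c, which carries a SOCS box, had 47.4, 46.1 and 50.7 scaled CPM in LPS cells, against 87.5, 78.1 and 89.3 in Control cells, and fell 1.75-fold (edgeR adjusted p = 6.37e-08). Rab23, an inhibitor of Hedgehog signalling, had 6.93, 8.38 and 7.11 scaled CPM in LPS cells, against 5.31, 5.60 and 3.55 in Control cells, and rose 1.56-fold (adjusted p = 0.0105), a call lost without the third control library (0.0631).

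**Figure D4:**
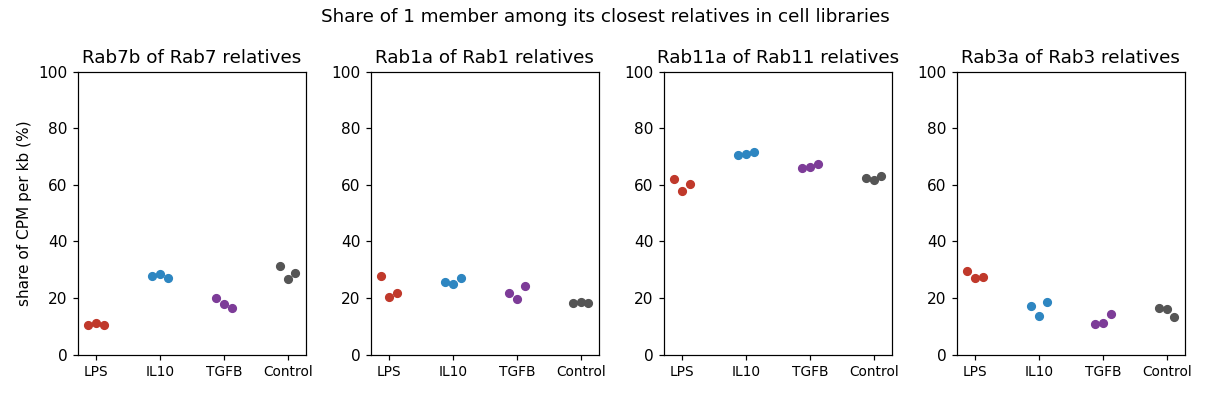
Share (y axes, percent of CPM per kilobase) of Rab7b in Rab7 and Rab7b, of Rab1a in Rab1a and Rab1b, of Rab11a in Rab11a and Rab11b, and of Rab3a in the 4 Rab3 genes, in each LPS, IL10, TGFB and Control cell library (x axes, 1 dot each). Rab7b holds at most 11.2% in LPS cells against 26.8% to 31.2% in Control cells, while the Rab1a share is 18.3% to 18.5% in Control cells and higher in every treated library.

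The treatments were then set against each other within 1 fit of the 12 cell libraries. Most called members were lower in LPS cells than in cells given either cytokine, while Rab20 and Rab3a were higher in LPS cells than under either. Rab44 and Rab32 were higher, and Rab7b and Rab20 lower, in TGFB than in IL10 cells. Between LPS and IL10 cells 6 members were higher and 21 lower of 44 tested, where 53.3% of all 12148 genes were called, 27.0% as higher and 26.3% as lower. Between LPS and TGFB cells 4 were higher and 18 lower, where 57.1% of all genes were called, 29.3% as higher and 27.8% as lower. Between TGFB and IL10 cells 6 were higher and 8 lower, where 38.3% of all genes were called, 18.3% as higher and 20.0% as lower. With the values of each library given above, Rab20 was 2.21-fold higher in LPS than in IL10 cells (edgeR adjusted p = 7.46e-08) and 3.49-fold higher in LPS than in TGFB cells (1.05e-10). Rab7b was 3.62-fold lower in LPS than in IL10 cells (2.21e-12) and 1.99-fold lower in LPS than in TGFB cells (1.09e-08). Rab14 was 2.03-fold lower (9.41e-10) and Rab31 1.94-fold lower (9.72e-11) in LPS than in TGFB cells. Rab11a was 1.83-fold lower in LPS than in IL10 cells (3.35e-09). In TGFB cells Rab44 was 3.59-fold higher (5.84e-05) and Rab32 1.59-fold higher (5.69e-08) than in IL10 cells, while Rab7b was 1.82-fold lower (1.51e-07) and Rab20 1.58-fold lower (0.000143).

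Genes that load, switch and read Rab proteins were counted from fixed lists of 14 prenylation and GDI genes, 34 GEFs, 36 GAPs and 63 effectors. In LPS cells falls outnumbered rises in each of the 4 lists, while in IL10 cells the prenylation and GDI list had rises alone. Of 33 GEFs tested, 4 rose and 18 fell in LPS cells, 7 rose and 6 fell in IL10 cells, and 9 rose and 4 fell in TGFB cells. Of 34 GAPs tested, 2 rose and 20 fell in LPS cells, 2 rose and 5 fell in IL10 cells, and 9 rose and 7 fell in TGFB cells. Of 47 effectors tested, 10 rose and 23 fell in LPS cells, 4 rose and 4 fell in IL10 cells, and 6 rose and 9 fell in TGFB cells. Of 14 prenylation and GDI genes, 2 rose and 5 fell in LPS cells, 5 rose in IL10 cells, and 4 rose and 2 fell in TGFB cells. Beside 56.1% of all genes tested in LPS cells, 66.7% of GEFs, 64.7% of GAPs, 70.2% of effectors and 50.0% of prenylation and GDI genes were called. In IL10 cells these shares were 39.4%, 20.6%, 17.0% and 35.7%, beside 23.2% of all genes, and in TGFB cells 39.4%, 47.1%, 31.9% and 42.9%, beside 29.9%. Several of these shares lie near that of all genes. The median log2 fold change in LPS cells was -0.30 for GEFs, -0.35 for GAPs, -0.25 for effectors and -0.12 for prenylation and GDI genes, against 0.01 for all genes.

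In LPS cells the DENN-domain GEF Dennd2d rose 4.18-fold (edgeR adjusted p = 2.5e-12), while Dennd4c fell 2.94-fold (7.82e-08), Dennd4a 2.28-fold (1.61e-07) and Dennd1a, a GEF for Rab35, 1.74-fold (4.06e-08). The GAPs Tbc1d2, which acts on Rab7, and Rab3gap2, a subunit of the Rab3 GAP, fell 3.53-fold (4.55e-11) and 2.27-fold (1.73e-11). Of the effectors, the Rab11 binder Rab11fip1 rose 3.96-fold (4.04e-12) while another, Rab11fip5, fell 2.87-fold (3.32e-12), and Rilpl1 rose 5.99-fold (4.37e-09). In IL10 cells Rab3il1, a GEF also known as GRAB, rose 6.16-fold (edgeR adjusted p = 3.8e-14) and the Rab7-binding autophagy regulator Rubcn rose 1.54-fold (7.92e-06). In TGFB cells Rab3il1 rose 2.18-fold (edgeR adjusted p = 2.13e-05), Mlph, an effector of Rab27a, rose 3.27-fold (9.48e-06), Gdi2 rose 1.42-fold (0.000116), the Rab kinase gene Lrrk2 rose 1.74-fold (8.76e-05) and Dennd2d fell 2.52-fold (5.71e-05).

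In EVs the first comparison was between treated and Control EVs. Compared with Control EVs, LPS EVs had more of 8 members that had at most 10.1 scaled CPM in any cell library, and none of the abundant members passed. Of 45 members tested 8 were higher and none lower by edgeR's test, where 14.2% of all 12216 genes were called, 13.9% as higher and 0.237% as lower. The median log2 fold change was -0.11 for the members tested and 0.33 for all genes. The members called were the exocytosis genes Rab3b and Rab3c, Rab27a, Rab44, the Golgi genes Rab19 and Rab30, Rab34 and Rab23. All 8 calls were lost without any 1 of the LPS EV libraries (0 of 8 left), with a minimum mean of 50 counts and in a fit of all 12 EV libraries.

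Rab27a had 9.19, 24.0 and 9.12 scaled CPM in LPS EVs and no count in the 3 Control EV libraries, at least 36.2-fold higher against a floor of 3 counts per library (edgeR adjusted p = 0.025). Rab3b had 7.59, 24.6 and 17.6 scaled CPM in LPS EVs and no count in Control EVs, at least 42.6-fold higher (adjusted p = 0.025). Rab23 had 10.6, 35.0 and 29.9 scaled CPM in LPS EVs and no count in Control EVs, at least 64.5-fold higher (adjusted p = 0.025). These 3 genes, like Rab3c, Rab30, Rab19 and Rab44, had no count in any Control EV library, and Rab34 had almost none, so they passed the filter on low counts through the LPS EV group alone and had to differ. Their p-values are therefore given as a description and not as support. On the same floor Rab3c was at least 73.8-fold higher (adjusted p = 0.025), with 12.4, 57.1 and 16.9 scaled CPM in LPS EVs. Rab30 was at least 31.9-fold higher (0.0393), Rab19 at least 18.8-fold higher (0.025) and Rab44 at least 8.47-fold higher (0.025). Rab34 had 15.4, 17.9 and 23.6 scaled CPM in LPS EVs, against 0, 0 and 0.14 in Control EVs (adjusted p = 0.025). In LPS cells themselves Rab27a had at most 0.0332, Rab3b at most 0.0332, Rab3c at most 0.029, Rab34 at most 0.266 and Rab30 at most 0.389 scaled CPM. These LPS EV libraries are those in which 116 genes silent in cells summed to 1157, 4986.2 and 2383.4 CPM and markers of other cell types to 157.2, 775.3 and 295.3 CPM, and the part of this in the 8 calls was not tested.

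IL10 EVs and TGFB EVs gave no called member against Control EVs, of 32 and 31 tested, and by edgeR 0.0% of all 8992 and of all 9093 genes were called in either direction. At an unadjusted p under 0.05 there were 0 and 2 members, and DESeq2 called 0 and 0. The shares of all genes at that level and by DESeq2 are not given here, so these counts are no result about the members. The 2 lowest p-values in IL10 EVs were those of Rab8a, with 59.5, 77.4 and 114 scaled CPM in IL10 EVs, against 196, 136 and 179 in Control EVs (edgeR adjusted p = 1), and of Rab32, with 157, 119 and 148 in IL10 EVs, against 101, 50.0 and 45.7 in Control EVs (adjusted p = 1). In TGFB EVs they were those of Rab22a, with 450, 296 and 352 scaled CPM in TGFB EVs, against 105, 111 and 223 in Control EVs (edgeR adjusted p = 0.999), and of Rab8a, with 32.1, 109 and 32.7 in TGFB EVs (adjusted p = 0.999). These groups did not overlap, but no gene passed adjustment at this spread between EV libraries. Rab27a had no count in any IL10, TGFB or Control EV library, and Rab35 had 75.2, 49.5 and 2.16 scaled CPM in IL10 EVs, 91.0, 22.8 and 29.5 in TGFB EVs and 0.257, 20.9 and 0.14 in Control EVs.

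Rab7b, Rab20, Rab14 and Rab11a, which were called in LPS cells, did not pass in LPS EVs. Rab7b had 28.8, 65.7 and 57.1 scaled CPM in LPS EVs, 91.8, 82.4 and 166 in IL10 EVs, 49.0, 88.8 and 95.7 in TGFB EVs, and 174, 133 and 105 in Control EVs (edgeR adjusted p = 0.166 for LPS). Every LPS EV library lay below every Control EV library for this gene, as was also so for Rab14. Rab20 had 51.7, 33.1 and 37.4 scaled CPM in LPS EVs, 6.23, 0 and 48.5 in IL10 EVs, 0, 46.2 and 1.54 in TGFB EVs, and 15.3, 0 and 71.6 in Control EVs (adjusted p = 0.941 for LPS). Rab14 had 68.3, 73.1 and 106 scaled CPM in LPS EVs, 185, 147 and 251 in IL10 EVs, 77.5, 263 and 246 in TGFB EVs, and 253, 112 and 309 in Control EVs (adjusted p = 0.19 for LPS). For Rab20 the spread within the IL10, TGFB and Control EV groups ran from no count to 46.2 scaled CPM or more. Rab11a had 41.8, 45.1 and 67.6 scaled CPM in LPS EVs, 56.3, 92.2 and 165 in IL10 EVs, 147, 57.4 and 34.1 in TGFB EVs, and 89.7, 48.3 and 77.0 in Control EVs (adjusted p = 0.901 for LPS).

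EVs were then compared with the cells that released them. Rab5b, a Rab of early endosomes, had lower values in EVs than in cells in all 4 conditions and was called in 3, and Rab28 and Rab22a were higher in TGFB EVs than in TGFB cells. By edgeR 14 members were higher and 10 lower of 48 tested in LPS EVs, where 40.5% of all 13113 genes were called, 25.3% as higher and 15.2% as lower. None was higher and 6 were lower of 43 in IL10 EVs, where 17.7% of all genes were called, 7.49% as higher and 10.2% as lower. Scaled by library size alone the split in IL10 EVs was 2 higher and 4 lower, and with RLE scaling 1 higher and 5 lower. In TGFB EVs 2 were higher and 3 lower of 42, where 18.4% of all genes were called, 9.42% as higher and 8.99% as lower, and both other scalings gave 2 higher and 5 lower. In Control EVs none was higher and 5 were lower of 43, where 10.7% of all genes were called, 1.23% as higher and 9.43% as lower. Library size alone turned the LPS split into 15 higher and 6 lower. The median log2 fold change of the members was -0.22, -0.62, -0.86 and -0.38 in LPS, IL10, TGFB and Control EVs, against 0.13, -0.35, -0.46 and -0.24 for all genes. The members called lower in TGFB EVs had no count in those libraries. In Control EVs this held for all but Rab5b, and in IL10 EVs for Rab44, Rab3a and Rab2b. Such members passed the filter on low counts through the cell libraries alone, so their calls are a description. The counts of calls moved strongly with single libraries. Without any 1 cell library they were 10 or 11 in LPS EVs, 0 in IL10 EVs, 1 in TGFB EVs and 0 in Control EVs. Without the second or the third IL10 EV library they were 10 and 21, without the first or second TGFB EV library 14 and 15, and without the first or second Control EV library 14 and 8.

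Rab5b had 8.99, 7.58 and 14.9 scaled CPM in LPS EVs, against 50.7, 51.4 and 54.2 in LPS cells, and was 4.84-fold lower (edgeR adjusted p = 0.00134). It had 11.5, 7.89 and 20.8 scaled CPM in IL10 EVs, against 59.0, 63.4 and 60.4 in IL10 cells, and was 4.40-fold lower (adjusted p = 0.043). In Control EVs it had 20.5, 14.9 and 15.1 scaled CPM, against 62.1, 60.2 and 63.9 in Control cells, and was 3.67-fold lower (adjusted p = 0.025). In TGFB EVs it had 0, 18.2 and 3.08 scaled CPM, against 61.1, 64.6 and 64.5 in TGFB cells, and did not pass (adjusted p = 0.288). All 12 EV libraries lay below all 12 cell libraries. The Control call was lost without any 1 Control cell library (adjusted p up to 0.197). The IL10 call was lost without any 1 IL10 cell library or the first IL10 EV library, with a minimum mean of 50 counts and with library size alone (up to 0.215), and the LPS call was kept in all 11 alternatives run for single members (up to 0.00964). Rab5c had 4.60, 4.21 and 6.12 scaled CPM in LPS EVs, against 34.5, 38.6 and 36.4 in LPS cells, and was 7.14-fold lower (edgeR adjusted p = 0.000694). It did not pass in the other 3 conditions (lowest adjusted p = 0.196). Rab5a passed in none of the 4 (lowest adjusted p = 0.0983), with 37.4, 16.0 and 25.1 scaled CPM in LPS EVs.

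**Figure D5:**
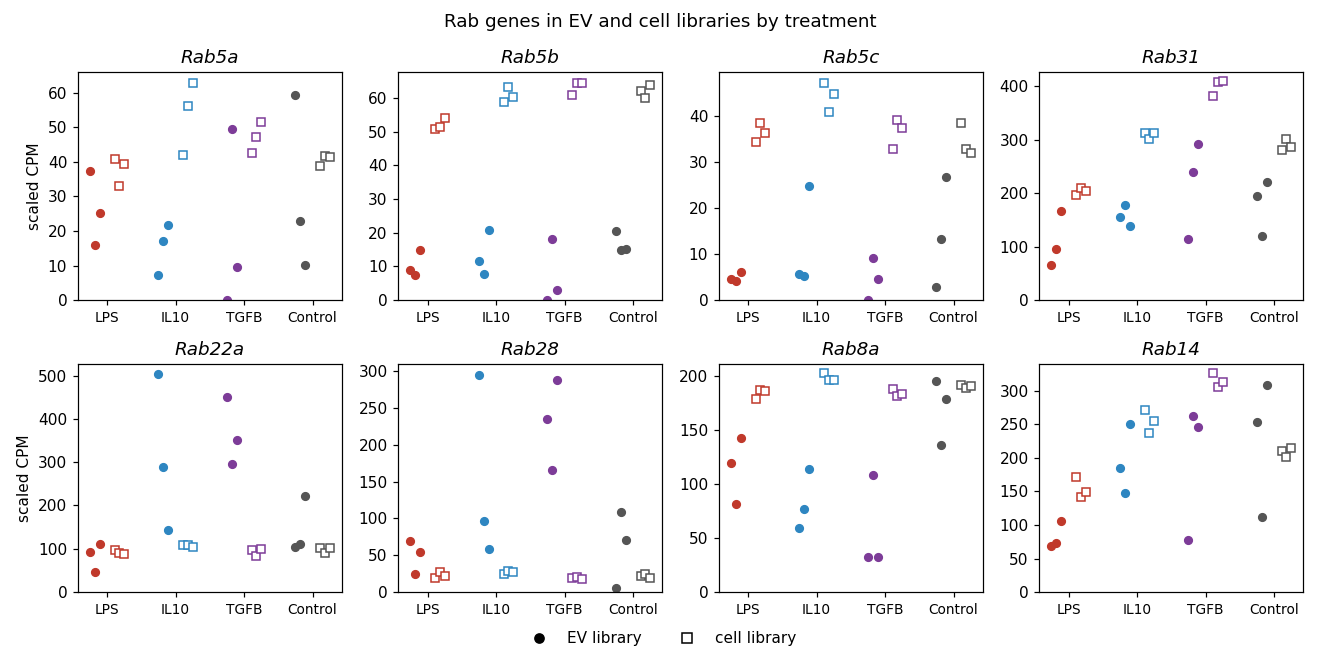
Scaled CPM (y axes, from 0) of 8 Rab genes in EV libraries (filled circles) and cell libraries (open squares, right of them) by treatment (x axes), with 1 symbol per library. Rab5b is lower in every EV library than in every cell library, and Rab22a and Rab28 are higher in the 3 TGFB EV libraries than in TGFB cells.

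Rab28, studied mainly in cilia and photoreceptors, had 235, 165 and 288 scaled CPM in TGFB EVs, against 18.8, 19.9 and 17.8 in TGFB cells, and was 12.8-fold higher (edgeR adjusted p = 0.00253), a call kept in all 11 alternatives. It had 295, 96.3 and 57.9 scaled CPM in IL10 EVs, against 24.2, 28.5 and 27.3 in IL10 cells (adjusted p = 0.0585). In LPS EVs it had 68.7, 24.9 and 53.8 scaled CPM, against 19.6, 26.7 and 21.7 in LPS cells, and was 2.22-fold higher (adjusted p = 0.0494), a call lost without any 1 LPS cell library or the first or the third LPS EV library, or with no filter (up to 0.163). Control EVs ranged over 5.71, 109 and 70.5 scaled CPM, against 22.5, 24.5 and 19.3 in Control cells (adjusted p = 0.514). Rab22a, of early endosomes, had 450, 296 and 352 scaled CPM in TGFB EVs, against 97.9, 83.2 and 98.6 in TGFB cells, and was 4.16-fold higher (edgeR adjusted p = 0.00919), a call lost without any 1 TGFB cell library (up to 0.0672). In IL10 EVs it had 504, 288 and 143 scaled CPM, against 108, 109 and 105 in IL10 cells (adjusted p = 0.0834), and in LPS EVs 93.5, 47.2 and 110, against 97.4, 90.2 and 88.0 in LPS cells (0.823). For both genes the EV group means were highest in TGFB EVs and next in IL10 EVs. The interaction given below, which set each treatment against Control alone, called neither gene. The order of the treatments among themselves was not tested.

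Of the other abundant members, Rab31 had 156, 178 and 139 scaled CPM in IL10 EVs, against 312, 301 and 312 in IL10 cells, and was 1.90-fold lower (edgeR adjusted p = 0.0286), a call lost without any 1 IL10 cell library (adjusted p up to 0.162). Rab8a was 2.31-fold lower in IL10 EVs than in IL10 cells (adjusted p = 0.0464), a call lost in 8 alternatives, RLE scaling and library size alone among them (adjusted p up to 0.196). In LPS EVs Rab7 was 2.09-fold lower than in LPS cells (adjusted p = 0.00467), Rab1b 2.09-fold lower (0.00885) and Rab14 1.82-fold lower (0.0233). The Rab7 and Rab1b calls were kept in all 11 alternatives, and the Rab14 call was lost without any 1 LPS cell library, with a minimum mean of 50 counts and with library size alone (up to 0.105). Low members that had no count in an EV group could be given a bound alone. They passed the filter on low counts through the cell libraries alone, so their adjusted p-values are a description and not support. Rab44 was at least 14.8-fold lower in Control EVs, at least 13.7-fold lower in TGFB EVs and at least 3.50-fold lower in IL10 EVs than in the matching cells (adjusted p = 0.0216, 0.0214 and 0.0184). Rab3a was at least 5.97-fold lower in TGFB EVs and at least 6.92-fold lower in IL10 EVs (0.0147 and 0.0184), with 2.83, 3.04 and 3.69 scaled CPM in TGFB cells and 3.44, 3.76 and 4.78 in IL10 cells. Rab2b was at least 3.35-fold lower in IL10 EVs (0.0184), with 1.74, 1.85 and 2.21 scaled CPM in IL10 cells. Rab23 was at least 12.4-fold, Rab19 at least 7.64-fold and Rab39 at least 2.80-fold lower in Control EVs than in Control cells (0.0216 each), and Rab39 at least 2.77-fold lower in TGFB EVs (0.0258). The calls of Rab44, Rab3a and Rab2b and those in Control EVs were lost without any 1 library of the matching cells (adjusted p up to 0.151), and the Rab39 call in TGFB EVs without the second TGFB cell library or the second or the third TGFB EV library (up to 0.0782). Without the first or the third TGFB cell library Rab39 had no test. Rab27a, Rab3c, Rab3b, Rab34 and Rab30 were called as higher in LPS EVs than in LPS cells (adjusted p 0.000541 to 0.00575), with the values given above. They too passed the filter through the LPS EV libraries in which they are high, so these calls add nothing to the values.

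Finally, the interaction of compartment and treatment tested whether a treatment changed a member differently in EVs and in cells. For LPS 7 members were called of 48 tested, all with a more positive change in EVs, where 16.1% of all 13263 genes were called, 14.1% as higher and 2.04% as lower. They were Rab23 (edgeR adjusted p = 0.0016), Rab19 (0.00169), Rab27a (0.00178), Rab44 (0.00178), Rab39 (0.0053), Rab30 (0.00614) and Rab3c (0.0314), all of them without a count in the 3 Control EV libraries, so that these p-values too are a description. Rab39 had 4.40, 1.47 and 1.12 scaled CPM in LPS EVs, against 1.06, 0.997 and 0.348 in LPS cells. Rab19 had 3.80, 12.2 and 6.00 scaled CPM in LPS EVs and Rab44 4.20, 4.21 and 1.50. The same LPS EV libraries carry the counts of genes silent in cells described above, and their part in these calls was not tested. For IL10 and for TGFB 0 of 43 members were called by edgeR, where 0.285% and 0.31% of all genes were called (0.109% and 0.134% as higher, 0.176% in each as lower). At an unadjusted p under 0.05 there were 6 and 5 members, and DESeq2 called 2 and 2. The shares of all genes at this level and by DESeq2 are not given here, so these counts are no result about the members. Rab23 and Rab3a had the 2 lowest p-values in both the IL10 and the TGFB interaction (edgeR adjusted p = 0.281 and 0.296 for IL10, 0.226 and 0.25 for TGFB). Rab23 had 18.2, 17.2 and 0 scaled CPM in IL10 EVs and 0, 11.6 and 8.09 in TGFB EVs, against no count in Control EVs, and Rab3a had no count in IL10 or TGFB EVs, against 28.8, 0 and 3.22 in Control EVs. The Rab3c call was lost without the second LPS cell library or the third Control cell library. The LPS count was 11 and 13 without the first and second Control EV library. For IL10 it was 1 without the third IL10 EV library or any 1 Control EV library. For TGFB it was 1 without the first or second TGFB EV library or the third Control EV library, and 2 without the second Control EV library.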

How the data were processed

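RNA of BV2 cells and EVs was extracted with the miRNeasy kit and amplified over 18 PCR cycles (SMART-Seq v4), tagged with Nextera XT and read in pairs of 150 bases, per the labels' protocols. The submitters' processing notes name DESeq2. No aligner, genome build or version of it was given in the sources used. The authors deposited 6 tables of raw counts per gene, 1 per treatment and compartment. The 12 control columns that recur between tables were identical, so 24 libraries were joined, with 0 columns unmapped. The lowest total of a listed gene was 240 and of a member 271, so less abundant Rab genes were not analysed here. Series text on recipient cells was not used here.

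Comparisons used edgeR 4.0.16 in R 4.3.3 (TMM, filterByExpr, robust quasi-likelihood fit), with Benjamini-Hochberg adjustment over all genes tested and a threshold of 0.05. Treated against control and EVs against cells used 6 libraries, treatments against each other the 12 cell libraries, and interactions 12 libraries. The test was also run on counts simulated from the same model that it assumes. That run did not mimic groups without counts, and its outcome is not used here. CPM is of library totals, scaled CPM is after TMM over 24 libraries, and CPM per kilobase uses GENCODE M21 exons (GRCm38), which matched all 48 members. A floor of 3 counts per library gives bounds for groups at 0, and floors and p-values cover counting error and library spread only. PCR reads carry no molecular identifiers.

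Members, role groups and lists were chosen with earlier results of these data known. All members could be named. Library values were given for a fixed set of members and, in cells, for up to 6 called rises and 6 falls without overlap and with a mean of at least 50 counts, and otherwise for up to 5 calls by p or the 2 lowest p. Alternatives were RLE scaling, library size alone, no filter, a minimum mean of 50 counts, DESeq2 1.42.0, another set of libraries in the fit, each library left out and, added later, the library number as a block.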

Additional observations from a re-analysis of the deposited data

Results flagged for a closer look

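7 members were called as having a change after LPS that differed between EVs and cells in the interaction test (edgeR, adjusted p). All 7 had no count in the 3 Control EV libraries, so these p-values are a description and not support. They were Rab23 (0.0016), Rab19 (0.00169), Rab27a (0.00178), Rab44 (0.00178), Rab39 (0.0053), Rab30 (0.00614) and Rab3c (0.0314). In the 3 LPS EV libraries Rab23 had 10.6, 35.0 and 29.9 scaled CPM, Rab3c 12.4, 57.1 and 16.9, and Rab30 1.60, 27.6 and 8.12, against no count in the 3 Control EV libraries. Rab27a had 9.19, 24.0 and 9.12, Rab19 3.80, 12.2 and 6.00, Rab44 4.20, 4.21 and 1.50, and Rab39 4.40, 1.47 and 1.12, again against no count in Control EVs. Genes silent in cells summed to 1157, 4986.2 and 2383.4 CPM in the same libraries. Rab39 is highest in the first of them, Rab44 about equal in the first and the second, and the other 5 highest in the second.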

How the results depend on the processing

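Counts of called Rab genes in cells against Control cells stayed at 21, 15 and 12 with RLE scaling and with DESeq2. Leaving out 1 library gave 15 to 22 for LPS, 11 to 14 for IL10 and 7 to 15 for TGFB cells, 19 to 27 for LPS against IL10, 16 to 23 for LPS against TGFB and 11 to 15 for TGFB against IL10 cells, the 7 being without the first control library. Of the calls against Control cells, 14 of 21, 10 of 15 and 6 of 12 were kept in every alternative that tested them, the replicate block aside, and no called member changed sign there. EV counts moved more. For LPS EVs against Control EVs the 8 became 0 with a minimum mean of 50 counts and 0 in the fit of all 12 EV libraries, and 0 to 10 with 1 library left out. EVs against cells gave, with 1 library left out, 10 to 27 for LPS, 0 to 21 for IL10, 1 to 15 for TGFB and 0 to 14 for Control. A minimum mean of 50 counts gave 13, 2 and 3 for LPS, IL10 and Control EVs, and DESeq2 gave 14 and 18 for IL10 and TGFB EVs, and the cause was not tested. All counts of calls in this section are of Rab genes alone, without the share of all genes called under the same alternative. Interactions gave 6 to 13 for LPS, 0 to 1 for IL10 and 0 to 2 for TGFB with 1 library left out. With a minimum mean of 50 counts the LPS interaction gave 2, and with DESeq2 those of IL10 and TGFB gave 2 each. Under TMM scaling the family sum was 2788 CPM in LPS cells, 3485 in IL10 cells and 3133 in Control cells. It was 1872 CPM in LPS EVs and 2422 CPM in TGFB EVs. The IL10 cells then had the highest mean sum, with libraries that overlapped with those of TGFB cells. RLE scaling moved the median log2 fold change of all genes in TGFB EVs against Control EVs to -0.24, against -0.13 with TMM. EV libraries outside the LPS group held 4.56 M to 17.98 M counts with 9 to 27 members at 0, and the LPS EV libraries 3.02 M to 6.28 M with 0 or 1. Column names number the libraries of each group, and no label says that a number marks a shared culture. Libraries of the same number deviated together with correlations of -0.22 to 0.35, and as no comparison had all 3 pairs over 0.1, the numbers were not taken to pair them. With the number as a replicate block, an alternative chosen after seeing the data, the counts were 20, 15 and 11 for LPS, IL10 and TGFB cells against Control cells, and 27, 24 and 15 for LPS against IL10, LPS against TGFB and TGFB against IL10 cells. They were 0 in each EV group against Control EVs, 16, 0, 2 and 0 for LPS, IL10, TGFB and Control EVs against cells, and 6, 0 and 0 for the LPS, IL10 and TGFB interactions.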
